A study of Mus musculus with 5 samples.

Results

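Genes of cholesterol synthesis, fatty acid synthesis, their SREBP control and sterol efflux were followed in N18 cells given extra Dyrk1a. The group is a list of 40 gene symbols chosen for their roles in these pathways, with earlier results of these data known, set beside 19087 genes on the array. Of these, 38 were named by at least 1 probe, 73 probes in all, and 37 had a probe measured on all 5 arrays and were tested. N18 is a mouse neuroblastoma line. N18 cells infected with pAd-Dyrk1a, an adenovirus that delivers Dyrk1a, were compared with N18 cells infected with the control virus pAd-Track-CMV, so cells on both sides of each ratio carried virus. Each of 5 two-colour Agilent arrays hybridised 1 pair of samples, with Dyrk1a RNA in Cy5 on replicates 1, 2 and 3 and in Cy3 on replicates 4 and 5. The dose of virus, the time after infection and the sterol content of the medium are not given in the sources used here.

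Animal cells make cholesterol from acetyl-CoA, first through mevalonate to farnesyl diphosphate and then through squalene and lanosterol. The genes of both stretches, and many genes of fatty acid synthesis, are transcribed under SREBP proteins, which Scap carries out of the endoplasmic reticulum when sterols are low and which Insig proteins hold back there when sterols are high. Liver X receptors (LXR) sense oxidised sterols and raise the efflux transporters Abca1 and Abcg1, and neural cells depend on their own synthesis because little cholesterol crosses from blood to brain.

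Values are given as Dyrk1a over control vector on the log2 scale, centred on each array's median, where 0 is the median feature. The log base and the direction come without a statement from the authors and were inferred from the values, the direction mainly from Dyrk1a itself. The Dyrk1a probe measured on all arrays stood at 1.93 to 3.02, above 0 in 5 of 5 arrays. A ratio gives no level, so genes could not be ranked by abundance, and fewer expressing cells and less RNA per cell cannot be told apart. Of 10 sympathetic neuroblast markers 9 were on the array and 7 had a value on all 5 arrays. Of 6 glial markers 5 were on the array and 1 had such a value. For 5 fibroblast markers these counts were 5 and 2, and for 5 immune markers 3 and 1. Over all 19087 genes on the array 11191 had a value on all 5 arrays. The labels do not say whether the 5 samples came from separate cultures, although the design text calls the measurements independent, and p-values then cover only the spread between these samples.

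The sterol synthesis genes lay above 0 almost throughout, by small amounts. In 16 of 17 tested genes the fitted value exceeded 0, or 94.1%, beside 54.9% of all 11191 tested genes. Their median log2 ratio was 0.19, a 1.14-fold higher level, beside a median of 0.0080 over all tested genes. The fatty acid synthesis genes had a median of 0.12 over 10 genes, the sterol efflux and LXR genes 0.055 over 4, and the genes of SREBP control and sterol transport 0.039 over 6. By limma's adjusted p, 0 of the 37 genes passed the threshold of 0.05 in either direction. Over all genes 0.00894% passed as higher, which is Dyrk1a alone. At an unadjusted p under 0.05 limma had 18 of the 37 higher and 0 lower, against 5.25% of all tested genes higher and 6.38% lower. Of these 18 genes 14 belonged to sterol synthesis, 3 to fatty acid synthesis and 1 to efflux and LXR.

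The groups can also be read array by array. The sterol synthesis median was 0.19, 0.25, 0.22, 0.084 and 0.20 in replicates 1 to 5, above 0 in each array and lowest in replicate 4. The fatty acid median was 0.11, 0.22, 0.054, 0.10 and 0.12, with replicate 2 highest. The efflux and LXR median was 0.11, 0.032, 0.065, 0.075 and 0.077. Set against each other within an array, the sterol synthesis median exceeded the fatty acid median by 0.065 ± 0.069 (SD, n = 5), higher in 4 of 5 arrays, and the efflux and LXR median by 0.12 ± 0.078 (SD, n = 5), higher in 5 of 5. These differences of medians were not tested.

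**Figure D1:**
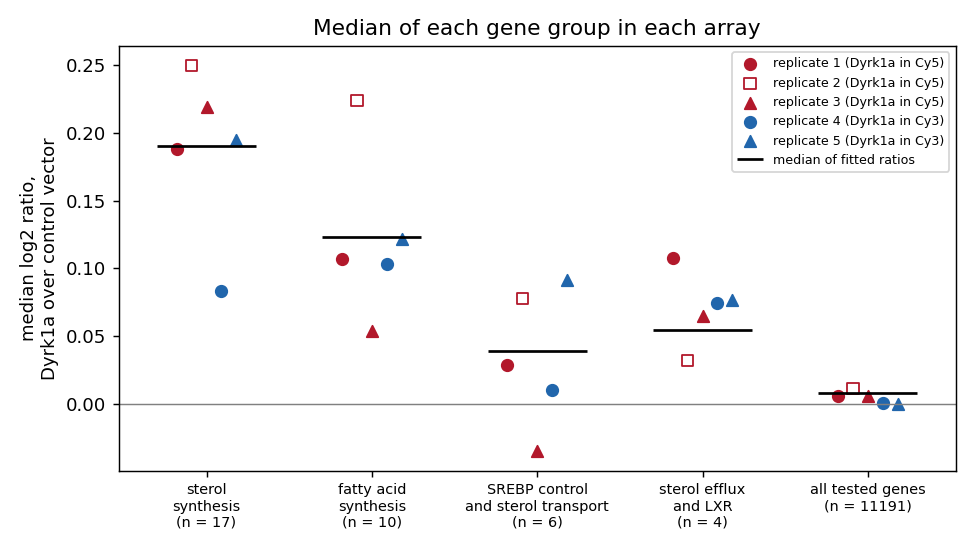
Median centred log2 ratio, Dyrk1a over control vector (vertical axis), of each gene group in each of the 5 arrays, with the median of the fitted ratios as a black line. Sterol synthesis medians lie between 0.084 and 0.25, while those of all 11191 tested genes lie between 0.00 and 0.011.

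Promoters of members are shown because most of these genes share a direction and SREBP, NF-Y and Sp1 sites are the known elements of sterol gene promoters. The RefSeq promoter table (GRCm38.p6, 250 bases before to 50 after each start) held 42 promoters of 32 members. Fdps, Fdft1 and Sqle of sterol synthesis were among the members without a promoter there. An SRE core (TCACNCCAC), an NF-Y box (CCAAT), an E-box (CACGTG) and an Sp1 box (GGGCGG) were searched on both strands, each counted whether or not it overlapped another. Only these exact letters were counted, with N any base, so a site with other letters is missed. The sequences are those of the single member promoter with an exact match to the SRE core, of 3 sterol genes with fitted ratios above 0.20, and of 1 efflux gene. They were chosen after the values were seen. Each is written 5′ to 3′ along the gene's strand, and capitals mark SRE core and NF-Y box matches, on either strand.
Hmgcs1, chr13:119690101-119690400, plus strand: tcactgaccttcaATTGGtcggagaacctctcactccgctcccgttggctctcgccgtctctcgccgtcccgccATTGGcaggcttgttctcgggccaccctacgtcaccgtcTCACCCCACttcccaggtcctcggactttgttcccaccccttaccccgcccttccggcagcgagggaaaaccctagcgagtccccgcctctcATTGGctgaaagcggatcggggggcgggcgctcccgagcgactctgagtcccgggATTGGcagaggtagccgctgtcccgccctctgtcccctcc
Mvd, chr8:122443373-122443672, minus strand: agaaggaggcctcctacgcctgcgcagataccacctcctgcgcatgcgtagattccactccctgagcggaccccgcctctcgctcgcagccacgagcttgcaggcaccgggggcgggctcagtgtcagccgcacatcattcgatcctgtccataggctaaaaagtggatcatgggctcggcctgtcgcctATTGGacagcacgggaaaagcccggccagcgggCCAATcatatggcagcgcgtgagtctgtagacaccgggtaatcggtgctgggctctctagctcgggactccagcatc
Lss, chr10:76531355-76531654, plus strand: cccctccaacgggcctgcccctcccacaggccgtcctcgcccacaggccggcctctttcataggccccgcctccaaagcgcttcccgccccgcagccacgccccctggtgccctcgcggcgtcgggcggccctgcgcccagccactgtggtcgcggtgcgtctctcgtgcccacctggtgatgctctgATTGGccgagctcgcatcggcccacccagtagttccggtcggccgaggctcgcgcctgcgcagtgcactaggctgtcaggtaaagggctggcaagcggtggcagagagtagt
Cyp51, chr5:4104648-4104947, minus strand: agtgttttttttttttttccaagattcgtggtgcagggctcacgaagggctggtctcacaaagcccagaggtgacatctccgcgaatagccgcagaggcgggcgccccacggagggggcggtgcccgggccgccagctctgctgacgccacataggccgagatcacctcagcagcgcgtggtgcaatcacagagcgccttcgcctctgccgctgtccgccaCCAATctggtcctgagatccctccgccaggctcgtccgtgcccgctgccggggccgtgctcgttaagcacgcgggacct
Abca1, chr4:53159846-53160145, minus strand: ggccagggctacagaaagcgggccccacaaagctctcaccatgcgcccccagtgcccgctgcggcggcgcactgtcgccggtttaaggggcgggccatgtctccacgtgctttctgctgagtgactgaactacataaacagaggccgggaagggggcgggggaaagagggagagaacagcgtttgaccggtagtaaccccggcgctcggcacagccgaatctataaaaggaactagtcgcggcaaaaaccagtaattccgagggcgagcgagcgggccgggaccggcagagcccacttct

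The Hmgcs1 promoter held the SRE core at position -137 from the start together with 4 NF-Y boxes, while that of Abca1 held neither. Motif content was not compared with the fitted ratios gene by gene. The Mvk promoter, of a gene fitted at 0.057, held 5 NF-Y boxes, and that of Ebp, fitted at -0.075, held 2. The Aacs promoter, of a gene fitted at 0.33, held none of the motifs searched. Among the 18 promoters of sterol synthesis genes 14 held an NF-Y box, 77.8%, against 37.4% of all 32851 promoters in the table and 38.2% of the 11614 promoters of tested genes. An Sp1 box was in 83.3% of the sterol synthesis promoters, 35.7% of all promoters and 61.5% of those of tested genes. Fatty acid promoters held an NF-Y box in 4 of 9 cases and efflux and LXR promoters in 1 of 5. The SRE core was in 1.24% of all promoters, and the E-box in 3 of 18 sterol synthesis promoters, 16.7%, against 7.15% of all promoters and 1162 of the 11614 promoters of tested genes. A match is a run of letters and not a measured binding site, and a promoter without a match may still hold a site with other letters.

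In the mevalonate arm all 6 tested genes had a fitted ratio above 0, with a median of 0.17. Hmgcs1, which makes HMG-CoA, had log2 ratios of 0.19, 0.028, 0.31, 0.19 and 0.23 in replicates 1 to 5. Replicate 2 was the lowest, near 0. The fitted log2 ratio was 0.19 (SE 0.049, limma adjusted p = 0.222). Its probes differed, with means of 0.31 and 0.072, the widest gap among members with more than 1 probe measured on all 5 arrays. Pmvk, phosphomevalonate kinase, had 0.18, 0.033, 0.45, 0.31 and 0.32, again lowest in replicate 2 and above 0 in all 5. Its fitted ratio was 0.27 (SE 0.065, limma adjusted p = 0.199), and its probes had means of 0.26 each. Mvd, the decarboxylase that yields isopentenyl diphosphate, had 0.17, 0.69, 0.30, 0.33 and 0.24. Here replicate 2 was the highest value. Its fitted ratio of 0.34, a 1.26-fold higher level (SE 0.080, limma adjusted p = 0.192), was the highest of the 37. Fdps, farnesyl diphosphate synthase, spanned 0.084 to 0.20 with a fitted ratio of 0.15 (SE 0.038). Idi1, the isopentenyl diphosphate isomerase, spanned 0.042 to 0.27 and was fitted at 0.12 (SE 0.043). Mvk, mevalonate kinase, was the exception. Its values were 0.014, -0.043, -0.14, 0.17 and 0.17, so both arrays with Dyrk1a in Cy3 were high and those with it in Cy5 were near or below 0, and the fitted ratio was 0.057 (95% interval -0.036 to 0.15). Acat2, the thiolase at the head of the pathway, was named by no probe of the annotation used here.

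From squalene to cholesterol, 10 of 11 genes had a fitted ratio above 0 with a median of 0.19, and 6 were above 0 in all 5 arrays. Cyp51, the lanosterol demethylase, had log2 ratios of 0.27, 0.32, 0.32, 0.11 and 0.20 in replicates 1 to 5. Its values lay close together, the arrays with Dyrk1a in Cy5 above those with it in Cy3. The fitted ratio was 0.23 (SE 0.035, 95% interval 0.14 to 0.31), with the smallest limma adjusted p of the 37, 0.0905. Each of its 3 probes was above 0 in 5 of 5 arrays, with means of 0.25, 0.21 and 0.27. Lss, lanosterol synthase, had 0.25, 0.66, 0.18, 0.21 and 0.32, with replicate 2 well above the rest. It was fitted at 0.31 (SE 0.078, limma adjusted p = 0.209), and its 3 probes, all above 0 in 5 of 5 arrays, had means from 0.29 to 0.34. Replicate 2 set 2 of those probes apart, at 0.87 each, but not the other, at 0.25.

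Fdft1, squalene synthase, showed the same array more sharply. Its values were 0.23, 0.90, 0.15, 0.19 and 0.18, and the fitted ratio was 0.31 (SE 0.11, limma adjusted p = 0.403), or 0.19 without replicate 2. Sqle, squalene epoxidase, had 0.36, 0.48 and 0.25 in the Cy5 arrays, where Dyrk1a RNA carried Cy5, and -0.042 and 0.033 in the Cy3 arrays. The dye groups did not overlap, and the fit gave 0.18 (SE 0.045, limma adjusted p = 0.214) beside a dye effect of 0.18, where the dye effect is the amount a ratio is raised with Dyrk1a in Cy5 and lowered with it in Cy3. Tm7sf2, a sterol reductase, had 0.35, 0.46, 0.14, 0.0085 and 0.047, with the same order of the dyes and a fitted ratio of 0.17 (SE 0.054). Msmo1, the methylsterol oxidase, ran the other way, with 0.18, -0.16 and 0.068 in the Cy5 arrays and 0.38 and 0.35 in the Cy3 arrays. Its fitted ratio was 0.20 (SE 0.056, limma adjusted p = 0.271). A further Msmo1 probe, measured on 4 arrays and outside the fit, had a mean of -0.043.

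Dhcr7, the reductase of the last step to cholesterol, had 0.25, 0.25, 0.22, 0.057 and 0.23 in replicates 1 to 5, and its probes had means of 0.20 each. Replicate 4 stood below the rest, and the fitted ratio was 0.19 (SE 0.039, limma adjusted p = 0.157). Nsdhl, a sterol dehydrogenase, had 0.35, 0.32, 0.24, -0.046 and 0.24, also lowest in replicate 4, and was fitted at 0.20 (SE 0.052), or 0.13 without replicate 5. Its fitted probes disagreed within arrays, with 0.84, 0.042 and -0.16 in replicate 5. Sc5d, sterol desaturase, spanned 0.072 to 0.27 and was fitted at 0.12 (SE 0.041), and Hsd17b7, a ketosteroid reductase of the pathway, spanned -0.024 to 0.33 and was fitted at 0.092 (SE 0.057), or 0.044 without replicate 2. Ebp, the sterol isomerase, was the single sterol synthesis gene below 0. It had 0.075, -0.17, -0.017, -0.063 and -0.17, lower in 4 of 5 arrays, and a fitted ratio of -0.075 (95% interval -0.19 to 0.042).

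**Figure D2:**
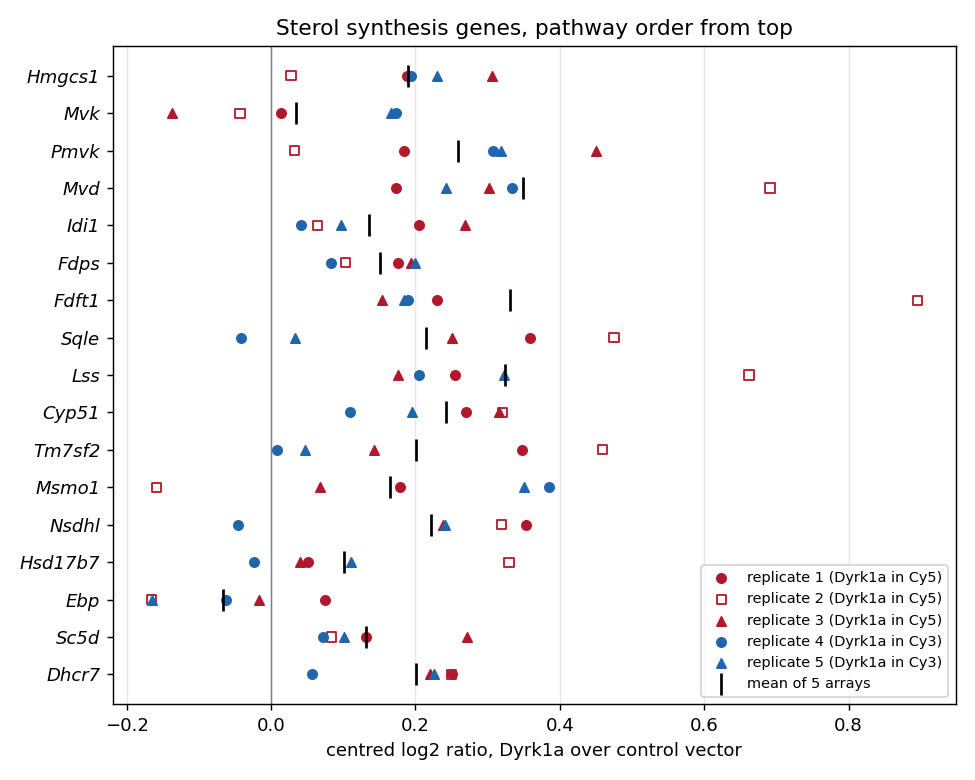
Centred log2 ratios (horizontal axis) of the 17 tested sterol synthesis genes in pathway order, 1 symbol per array, red with Dyrk1a in Cy5 and blue with it in Cy3, with the mean of the 5 arrays as a black bar. Points of 11 genes all lie right of 0, Ebp has 4 of 5 left of it, and the open squares of replicate 2 lie far right for Fdft1, Mvd and Lss.

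Of the 37 genes, 15 were above 0 in all 5 arrays and 0 below in all 5, beside 6.71% and 6.31% of all tested genes. The 15 comprised 11 of sterol synthesis, 2 of fatty acid synthesis and 2 of efflux and LXR, and 0 of the 6 genes of SREBP control and sterol transport.

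The regulators had fitted ratios of -0.023 to 0.085. Srebf2, the gene of the SREBP that drives sterol synthesis, had -0.044, 0.20, -0.081, 0.13 and 0.16 in replicates 1 to 5, and the fitted ratio was 0.085 (95% interval -0.044 to 0.21), or 0.041 without replicate 2. Its values crossed 0, and its 3 fitted probes had means of -0.016, 0.10 and 0.13. In replicate 2 these probes were at -0.36, 0.48 and 0.49. Srebf1, whose products favour fatty acid genes, had -0.070, 0.037, -0.22, 0.081 and 0.22, with a fitted ratio of 0.033 (95% interval -0.091 to 0.16). Scap, the escort protein, was fitted at -0.023 (95% interval -0.11 to 0.062). Insig1, itself a known SREBP target, had 0.10, 0.19, 0.011, -0.11 and 0.087 and was fitted at 0.044 (95% interval -0.072 to 0.16). Insig2, the other Insig gene, had 0.22, 0.12 and 0.11 in the Cy5 arrays and -0.18 and -0.17 in the Cy3 arrays. The sign of Insig2 followed the dye, with a fitted ratio of -0.013 (95% interval -0.10 to 0.077) and a dye effect of 0.16. Stard4, a carrier of sterol between membranes, had 0.21, -0.0033, 0.10, -0.0045 and -0.015, above 0 in replicates 1 and 3 and just below 0 elsewhere, and was fitted at 0.047 (95% interval -0.059 to 0.15). The median of these 6 genes was 0.039, and -0.0033 without replicate 5.

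Fatty acid synthesis was less even than sterol synthesis. All 10 tested genes had a fitted ratio above 0, but 2 were above 0 in all 5 arrays, Aacs and Scd2. Aacs, acetoacetyl-CoA synthetase, which feeds ketone bodies into lipid synthesis, had 0.27, 0.53, 0.20, 0.30 and 0.35 in replicates 1 to 5. Every array was at or above 0.20 and both dye groups overlapped. The fitted ratio was 0.33, a 1.26-fold higher level (SE 0.057, 95% interval 0.19 to 0.47, limma adjusted p = 0.116), with a dye effect of 0.0036. Scd2, a stearoyl-CoA desaturase prominent in brain, had 0.12, 0.11, 0.051, 0.20 and 0.32, with both Cy3 arrays highest, and was fitted at 0.18 (SE 0.037, limma adjusted p = 0.161). Its paralog Scd1 had 1 probe, measured in replicates 1, 2 and 4 and so outside the fit, at -0.32, -0.37 and -0.066, below 0 each time. Acss2, which makes acetyl-CoA from acetate, had 0.42, 0.34, 0.14, 0.069 and -0.0040 and was fitted at 0.17 (SE 0.051, limma adjusted p = 0.310).

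The core enzymes of chain building did not stand apart from 0. Fasn, fatty acid synthase, had -0.018, -0.051 and -0.13 in the Cy5 arrays and 0.16 and 0.14 in the Cy3 arrays, and a fitted ratio of 0.041 (95% interval -0.045 to 0.13). Acaca, acetyl-CoA carboxylase, had the same division by dye and was fitted at 0.015 (95% interval -0.076 to 0.11). Its fitted probes had means of -0.11 and 0.095. Acly, ATP citrate lyase, had 0.16, 0.75, 0.056, -0.045 and 0.094, and Fads1, a fatty acid desaturase, had 0.12, 0.88, 0.088, -0.022 and 0.049. In both genes replicate 2 carried most of the mean, and the fitted ratios of 0.17 (SE 0.11) and 0.19 (SE 0.12) became 0.066 and 0.058 without it. Fads2, the other Fads gene of the group, was fitted at 0.080 (SE 0.073), or 0.013 without replicate 2, where it had 0.34. The elongase gene Elovl6 was fitted at 0.081 (SE 0.041) and the malic enzyme gene Me1 at 0.033 (SE 0.035). The median of the group was 0.12, and 0.062 without replicate 2, while the sterol synthesis median was 0.19 in both cases.

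Among sterol efflux and LXR genes, Abca1, which loads cholesterol onto apolipoproteins, had 0.034, 0.015, 0.056, 0.12 and 0.17, above 0 in 5 of 5 arrays, with a fitted ratio of 0.088 (SE 0.033, limma adjusted p = 0.408). Nr1h3, encoding LXR alpha, had 0.18, 0.049, 0.056, 0.13 and 0.0010 and was fitted at 0.080 (95% interval -0.021 to 0.18). Abcg1, a further sterol transporter, had -0.092, -0.16, 0.074, 0.033 and 0.15, crossed 0 and was fitted at 0.017. Mylip, a ubiquitin ligase that removes lipoprotein receptors, had 0.21, 0.23 and 0.11 in the Cy5 arrays and -0.16 and -0.092 in the Cy3 arrays, and was fitted at 0.030 (95% interval -0.063 to 0.12). A further Mylip probe, outside the fit, had a mean of -0.057 over 4 arrays. Nr1h2, encoding LXR beta, was named by no probe used here.

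**Figure D3:**
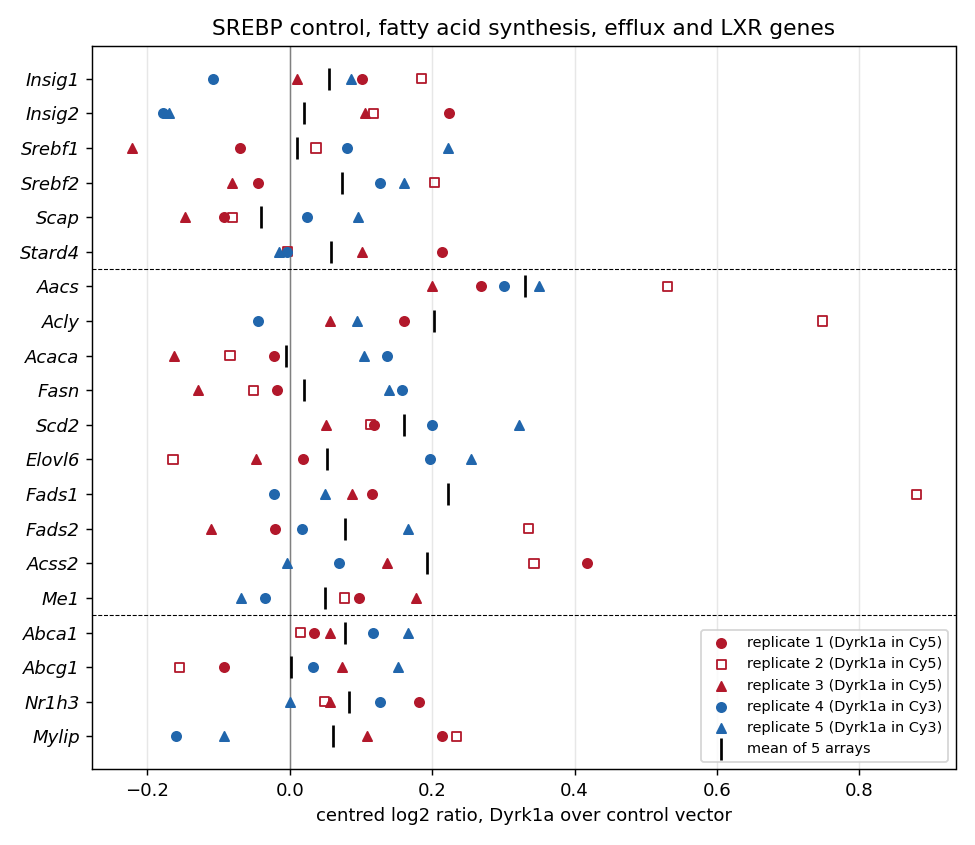
Centred log2 ratios (horizontal axis) of the 6 genes of SREBP control and sterol transport, the 10 of fatty acid synthesis and the 4 of efflux and LXR, parted by dashed lines, 1 symbol per array and the mean as a black bar. Aacs, Scd2, Abca1 and Nr1h3 have all 5 points right of 0, and Insig2, Scap, Fasn, Acaca, Me1 and Mylip have red and blue points on opposite sides of it.

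The sign followed the dye in 6 of the 37 genes, Insig2, Scap, Acaca, Fasn, Me1 and Mylip, 16.2%, beside 16.7% of all tested genes, and in 0 of the 17 sterol synthesis genes. These are signs of the mean over a gene's fitted probes. In Insig2, Acaca, Fasn and Me1 a single fitted probe followed the dye and the other did not. The further Mylip probe, outside the fit, did not follow it either. Single probes of the sterol synthesis genes Mvk and Nsdhl followed the dye, although their gene means did not. The Srebf2 mean did not follow it either, but its probe with a mean of -0.016 did, below 0 in the Cy5 arrays and above 0 in the Cy3 arrays. The Srebf2 probe with a mean of 0.10 had the opposite signs, only just below 0 in the Cy3 arrays, at -0.0135 and -0.015. The dye effect was above 0 in 13 of the 17 sterol synthesis genes, or 76.5%, with a median of 0.049, beside 55.3% and a median of 0.0095 over all tested genes. By limma's adjusted p under 0.05 the dye effect passed in 0 of the 37 genes, beside 1.33% of all tested genes, and at an unadjusted p under 0.05 in 10, or 27.0%, beside 14.9%.

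**Figure D4:**
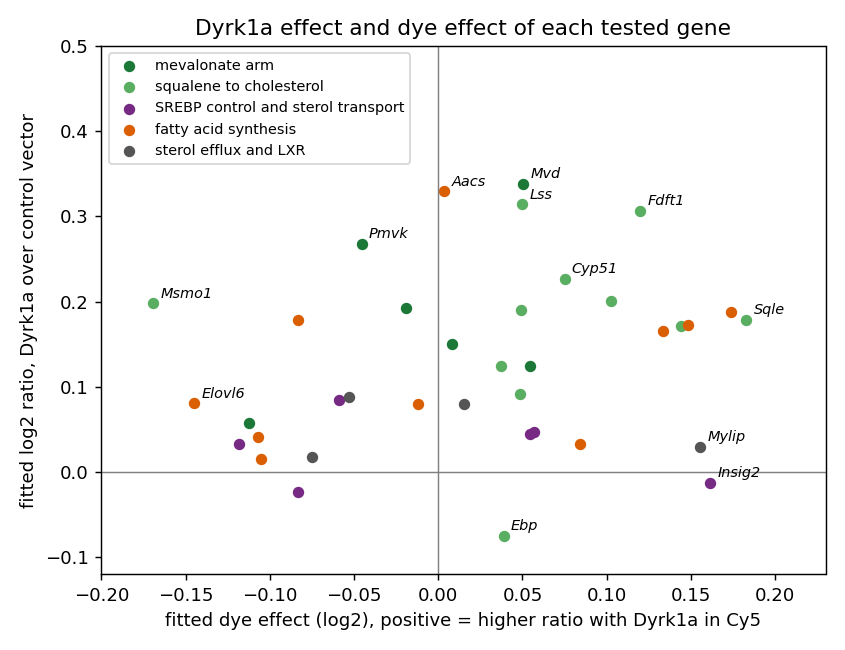
Fitted log2 ratio, Dyrk1a over control vector (vertical axis), against fitted dye effect (horizontal axis) for each of the 37 tested genes, coloured by group. Aacs, Mvd and Lss have high ratios with dye effects of 0.0036 to 0.050, and Insig2 and Mylip have ratios near 0 with dye effects of 0.16.

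Probes of 1 gene are separate readings of the same RNA, not replicates. Of the 73 probes 61 were measured on all 5 arrays, and 53 of these had a mean above 0. Another 11 were measured on 1 to 4 arrays, 4 with a mean above 0 and 7 below. Of 19 genes with more than 1 complete probe, 6 had probe means of opposite sign. These were Mvk, Insig1, Insig2, Srebf2, Acaca and Fasn, each with a fitted ratio within 0.09 of 0. The median gap between probe means of a gene was 0.066. These probe counts and gaps are not set beside those of all probes on the array, so they are not read as particular to these genes.

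The calls depended on the arrays used. The interquartile range over tested genes was 0.289 in replicate 2 and 0.145 to 0.167 in the others. Without replicate 2, 8 of the 37 genes passed limma's adjusted p of 0.05 as higher and 0 as lower. Of all tested genes 0.858% passed as higher and 2.5% as lower. These 8 were Hmgcs1, Pmvk, Mvd, Fdft1, Lss, Cyp51, Msmo1 and Aacs, at log2 ratios of 0.19 to 0.32 and limma adjusted p of 0.0205 to 0.0354. With array weights estimated from the same arrays, 18 of the 37 passed as higher and 0 as lower, beside 5.56% of all tested genes higher and 6.41% lower. Those 18 included 14 genes of sterol synthesis, with Aacs, Scd2, Elovl6 and Acss2 of fatty acid synthesis, and 0 of the other groups. The weights gave replicate 1 a value of 3.74 and replicate 2 a value of 0.15.

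**Figure D5:**
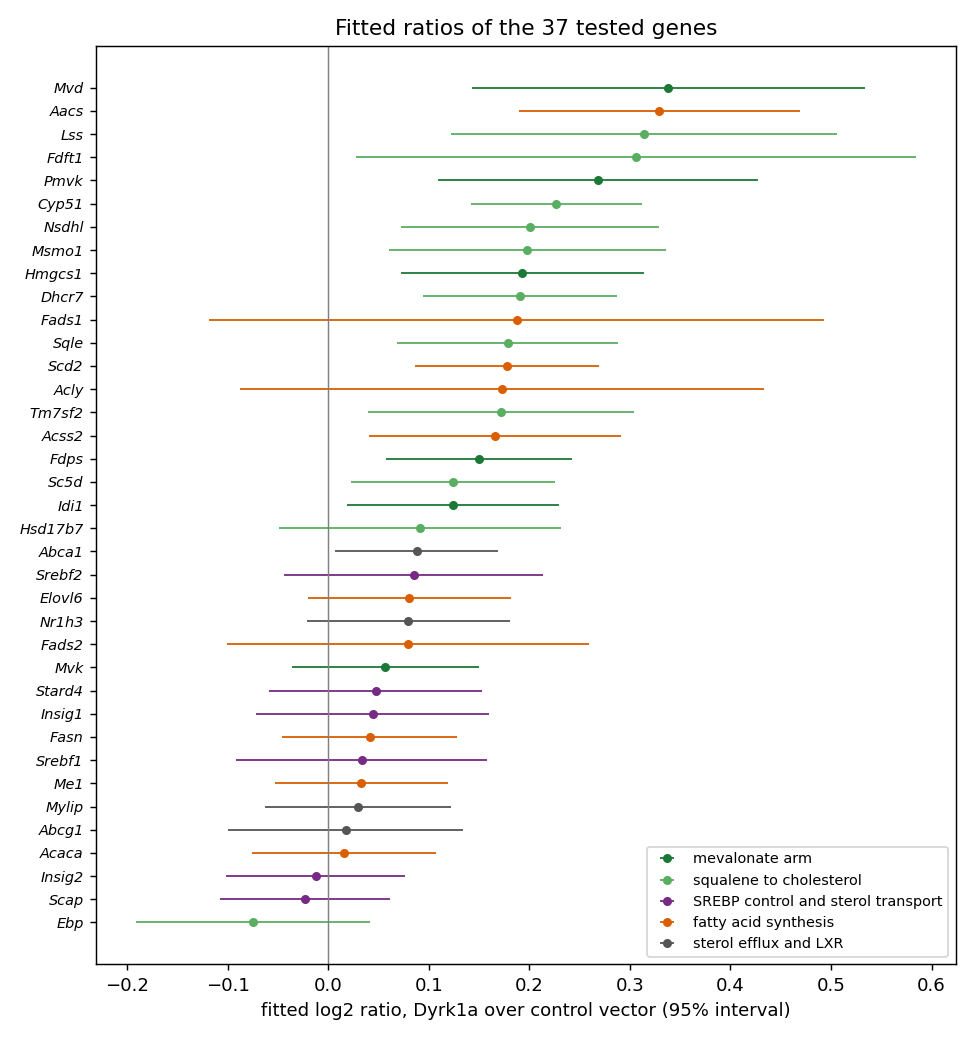
Fitted log2 ratio, Dyrk1a over control vector (horizontal axis), with its 95% interval from limma for each of the 37 tested genes in order of size, coloured by group. Mvd, at 0.34, is at the top and Ebp, at -0.075, at the bottom, and the 95% intervals are not adjusted for the number of genes.

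Other genes of these pathways, listed from general knowledge, had medians nearer 0. Counts above 0 stand beside 54.9% of all tested genes with a fitted ratio above 0. Of 18 further genes of sterol handling 11 were tested, 7 above 0 and 4 below, with a median of 0.019 and 0 past limma's adjusted p. Npc2, a lysosomal sterol carrier, was at 0.17 (SE 0.068) and Syvn1, a ubiquitin ligase of the endoplasmic reticulum, at 0.071. The sign of Syvn1 followed the dye, at -0.16, -0.21 and -0.27 in the Cy5 arrays and 0.33 and 0.37 in the Cy3 arrays, and its fitted dye term of -0.28 passed (limma adjusted p = 0.0192). Erlin1, of the sterol-sensing erlin complex, was at -0.089 (SE 0.032), below 0 in 5 of 5 arrays, and Osbp, an oxysterol binding protein, at -0.059. Of 18 further genes of fatty acid and lipid synthesis 17 were tested, 12 above 0 and 5 below, with a median of 0.045 and 0 past the threshold. In 4 of the 17 all 5 arrays were above 0, or 23.5%, beside 6.71% of all tested genes. The phosphatidate phosphatase gene Lpin1, a known SREBP target, was above 0 in 5 of 5 arrays, at 0.18 (SE 0.041, limma adjusted p = 0.192), as was the elongase gene Elovl1, at 0.17 (SE 0.068). Mid1ip1, an activator of acetyl-CoA carboxylase, was at -0.067 and the glycerol phosphate acyltransferase gene Gpam at -0.037. Of 13 further efflux and LXR genes 9 were tested, 5 above 0 and 4 below, with a median of 0.000042 and 0 past the threshold. Lpcat3, a phospholipid remodelling enzyme induced by LXR, was at 0.21 (SE 0.084) and the cholesteryl ester hydrolase gene Nceh1 at 0.097. Rxra, the partner receptor of LXR, was at -0.33 (SE 0.26) with -1.75 in replicate 2 alone, and the lipoprotein receptor gene Lrp8 at -0.042.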

How the data were processed

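Per the labels, total RNA extracted with Trizol was amplified, labelled and hybridised to 2-colour Agilent arrays. The authors deposited 1 table of log2 ratios, 44290 features in 5 columns, and the table held 0 columns of other samples. The scanner, the background correction and any normalization by the authors are not stated in the labels used here. Base 2 of the log2 values and their direction, Dyrk1a over control vector in every column, were inferred from the values, the direction mainly from the Dyrk1a probe, which is above 0 in both dye orientations. Between 63.8% and 70.0% of features had a value per array. Intensities were not used, so dim probes could not be filtered, and the number of arrays limits the precision.

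Probes were named through the platform annotation, with symbols updated through Entrez identifiers and RefSeq (GRCm38.p6). A gene's value was the mean of its probes measured on all 5 arrays. Arrays were centred on their medians over 14307 tested features, 11191 of them genes. limma 3.58.1 in R 4.3.3 (lmFit, eBayes, two-sided) was fitted across all features with terms for Dyrk1a and, per gene, for the dye, leaving 3 residual and 2.87 prior degrees of freedom. P-values were adjusted by Benjamini-Hochberg over all features, at a threshold of 0.05. The fit was tested on simulated data in which each feature had the same spread on every array. The wider spread of replicate 2 was not simulated. Every member was nameable. Of other pathway genes, the 2 with the smallest p in each direction per list were named, and any gene past the threshold. Members, lists and tests were chosen with earlier results of these data known. Alternatives were no dye term, no centring, equal spread, quantile normalization, array weights, features measured on at least 4 arrays, 1 row per probe, and each array left out with the tested features kept. With 1 row per probe, a gene was represented by its probe with the smallest p. Plots used Python 3.11.15 and matplotlib 3.10.9.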

Additional observations from a re-analysis of the deposited data

Results flagged for a closer look

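In 5 of the 37 tested genes 1 array stood apart from the other 4, by a gap of more than 0.71 of the range. Chance flags about 5% of such groups, and 9.5% of all tested genes were set apart in this way, 836 of 1063 by replicate 2. Replicate 2 was high for Fdft1, at 0.895 with the next value at 0.23, for Fads1, at 0.88 with the next at 0.116, and for Acly, at 0.748 with the next at 0.16. Replicate 4 was low for Dhcr7, at 0.0565 with the next value at 0.22, and for Nsdhl, at -0.046 with the next at 0.24. All are centred log2 ratios of Dyrk1a over control vector.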

How the results depend on the processing

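The direction of the sterol synthesis median held under all 12 alternatives, from 0.16 to 0.21, as did those of the fatty acid group, from 0.062 to 0.16, and of efflux and LXR, from 0.042 to 0.069. The median of the 6 genes of SREBP control and sterol transport ran from -0.0033 to 0.057 with 1 array left out. Against 0 members called higher in the fit reported, limma called 4 with arrays scaled to the same spread (Mvd, Lss, Cyp51 and Aacs), 4 with quantile normalization, 18 with array weights, and 0 to 8 with 1 array left out, the 8 without replicate 2. Over all genes, arrays scaled to the same spread gave 43 called higher and 175 lower, or 0.384% and 1.56%. Quantile normalization gave 47 and 190, or 0.42% and 1.7%. Array weights gave 622 and 717, or 5.56% and 6.41%. Leaving out replicate 2 gave 96 and 280, or 0.858% and 2.5%. No member was called lower in any setting run. At an unadjusted p under 0.05, limma had 7 members higher without replicate 5, beside 1.84% of all tested genes, and 11 without replicate 4, beside 1.49%, against 18 and 5.25% with all arrays.

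Of 444 single-gene values under the alternatives 401 kept their sign and side of the threshold, 34 passed it and 9 changed sign, in 6 genes near 0. The values with 1 row per probe are those of each gene's probe with the smallest p. They therefore do not show whether the other probes of a gene kept its sign. Insig2 was at 0.020 with no dye term and 0.015 with array weights, Acaca at -0.0056 with no dye term, and Mylip at -0.012 over features measured on at least 4 arrays. With 1 array left out, Insig1 ran from -0.0043 to 0.093, Srebf1 from -0.0023 to 0.069, Acaca from -0.0014 to 0.034 and Abcg1 from -0.016 to 0.047. The causes were not tested. Intensities were not used, so how far signal over background limits single genes is unknown.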
